A study of Homo sapiens with 62 samples.

Results

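The expression of 10 marker genes of the lung and its foregut lineage was followed in organoids and in the human embryonic stem cells (hESC) they were grown from. The genes are NKX2-1, SFTPB, SFTPC, ABCA3, SCGB3A2, TP63, SOX9, ETV5, FOXP2 and FOXJ1, chosen by symbol, and all 10 have a row among the 37415 genes of the table. PolyA RNA was sequenced in 62 libraries, 31 groups of 2, all from the hESC line WIBR3. The lung organoids comprise 4 groups: NEAT1-/- clone 1 and NEAT1-/- clone 2 at day 19, WT at day 20, and CTR at day 19. Hepatic organoids were NEAT1-/- clone 1, NEAT1-/- clone 2 and CTR at day 21, WT at day 21, and WT at day 17 under the conditions Chip and PN96. Cortical organoids were WT under SPIN at day 60, Chip at day 54 and PN96 at day 53, and NEAT1-/- clone 1, clone 2 and CTR at day 19. Nephron organoids were NEAT1-/- clone 1, clone 2 and CTR at day 13, and WT at day 7. The hESC were NEAT1-/- clone 1, clone 2 and CTR at day 0, and WT cells with PF-127 or without it at 0, 1, 4 and 24 h. PF-127 (Pluronic F-127) is a block copolymer that gels on warming. All groups not named Chip or SPIN carry the condition PN96, except the hESC without PF-127, which carry NT96 in the treatment label although their titles read PN96. The labels do not expand CTR, PN96, NT96, Chip or SPIN. NEAT1, a long non-coding RNA gene, is missing in 2 clones, so each knockout library is from 1 of 2 cell clones.

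In the embryo the lung arises from the ventral foregut endoderm, where the homeobox factor NKX2-1 marks the first lung progenitors. NKX2-1 is also made in the thyroid and the ventral forebrain. In human lung buds, SOX9 and the ETS factor ETV5 mark the growing distal tips, which respond to FGF signals, and FOXP2 is made in the distal epithelium. Mature cells are told apart by their products: surfactant proteins (SFTPB, SFTPC) and the lamellar body lipid transporter ABCA3 in alveolar type 2 cells, the secretoglobin SCGB3A2 in airway secretory cells, TP63 in basal cells, and FOXJ1, the factor for motile cilia, in ciliated cells. SOX9, ETV5, FOXP2, TP63 and FOXJ1 are also used in many tissues outside the lung.

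SCGB3A2 is a textbook target of NKX2-1, whose binding core is CAAG, and its promoter is shown because it was the member with the most RNA in stem cells. The window is RefSeq sequence of GRCh38.p14, from 250 bases before to 50 after a transcript start, written 5′ to 3′ on the strand of the gene, with CAAG and its reverse complement CTTG in capitals. It lies at chr5:147878461-147878760 on the plus strand.
SCGB3A2: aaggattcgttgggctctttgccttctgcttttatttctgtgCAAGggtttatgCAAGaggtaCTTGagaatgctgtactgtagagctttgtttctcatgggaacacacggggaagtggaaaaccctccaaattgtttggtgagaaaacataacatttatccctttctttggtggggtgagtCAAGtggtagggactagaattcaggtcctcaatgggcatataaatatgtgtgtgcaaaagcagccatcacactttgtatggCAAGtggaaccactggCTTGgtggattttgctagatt
The window holds 6 matches to CAAG on both strands together. The core is short: 86.0% of 35116 human promoter windows of this length hold CAAG or CTTG at least once, with a median of 2 matches. The longer CAAGTG, which includes CAAG, or its reverse complement CACTTG, matched 2 times in it, against 11.5% of all windows with at least 1 match. Such matches were not particular to SCGB3A2: 1 FOXP2 window held 7 matches to CAAG and 1 NKX2-1 window held 6, and the longer motif matched 1 time each in a window of NKX2-1 and of TP63. Binding was not measured. Of the 10 genes, 6 had a promoter entry: NKX2-1, SFTPB, ABCA3, SCGB3A2, TP63 and FOXP2.

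Levels are the authors' deposited TPM, a length-normalised transcript share that sums to 1000000 in every library and keeps no record of its depth, so the precision set by read counts is unknown. Group values are mean ± SD over 2 libraries, or over the 4 libraries of both clones. Log2 changes are given ± standard error from limma on log2(TPM + 1), a scale that understates the change of genes with few TPM. A gene was tested where 2 or more libraries of a fit had at least 1 TPM of it, and it rose or fell where the p adjusted over all genes tested was under 0.05. Whether the paired libraries of a group are separate cultures is not stated in the labels, so p-values reflect only how far these libraries vary, which may be technical. In bulk RNA, fewer cells of a type and less RNA per cell cannot be told apart.

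Among the 31 groups, the 2 lung CTR libraries were the least alike, with a correlation of 0.958 over genes, against 0.961 to 0.991 in the other groups. Replicate 1 had 14.5 TPM of FOXJ1, 20.8 TPM of FOXA2 and 17.8 TPM of POU5F1. Replicate 2 had 3.2 TPM of FOXJ1, 1.31 TPM of FOXA2 and 70.0 TPM of POU5F1. FOXA2 is an endoderm and floor plate factor, and POU5F1 is the pluripotency factor OCT4, whose reads can be shared with near-identical pseudogenes. Results on lung CTR are therefore given with both libraries and, where it matters, without each. A value without 1 library assumes that the remaining library varies like the other groups.

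The lung organoids held little RNA of the genes that define lung. NKX2-1 had 0.935 and 1.93 TPM in the clone 1 libraries, 1.77 and 0.904 TPM in clone 2, was listed at 0 in both WT libraries, and had 1.7 and 0.205 TPM in CTR. It reached 1 TPM in 3 of 8 lung libraries and in 0 of the 54 others, where the highest value was 0.61 TPM in a hepatic WT day 17 library. The 3 NKX2-1 values above 1 TPM were the highest of the series, and they came from clone 1, clone 2 and CTR. Its antisense neighbour NKX2-1-AS1, whose reads cannot be told apart from NKX2-1 if the libraries are unstranded, reached at most 1.53 TPM in lung libraries.

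SFTPB did not reach 0.5 TPM in any library. Its highest value in lung was 0.209 TPM, in a clone 2 library, against 0.327 TPM in a cortical library, and 40 of 62 libraries list it at 0. SFTPC was listed at 0 in 7 of 8 lung libraries, with 0.0899 TPM in the other, and its highest value anywhere was 0.734 TPM, in a cortical library. Both genes encode hydrophobic surfactant proteins, and neither passed the filter for testing in any fit. Other alveolar genes varied in the 8 lung libraries: SFTPA1 reached at most 0.351 TPM and HOPX, a type 1 cell marker, at most 0.218 TPM. SFTPA2 reached 1.19 TPM, SLC34A2 1.68 TPM, NAPSA 1.79 TPM, LPCAT1 4.38 TPM and LAMP3 4.83 TPM at most. The 2 hESC CTR libraries had 7.38 and 9.68 TPM of SLC34A2, 2.52 and 4.83 TPM of LAMP3 and 2.2 and 2.42 TPM of LPCAT1. They had 0.368 and 1.37 TPM of NAPSA and 0.163 and 0.0699 TPM of SFTPA2. PDPN, a type 1 cell marker that many other cells make, stood at 74.9 to 126.7 TPM, against 114.4 to 149.1 TPM in hESC CTR and clones. SFTPA1 and its near-identical paralog SFTPA2 can share reads, so their values are uncertain. KRT5, the basal cell keratin, was listed at 0 in all 8, and SCGB1A1, the club cell secretoglobin, reached 2.52 TPM at most.

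Factors of early endoderm and some of lung mesenchyme were near 0, while other mesenchyme genes were present. GATA6 and SOX17, factors of early endoderm, reached at most 0.266 and 0.47 TPM in lung libraries, against at least 27.6 TPM of GATA6 and 11.5 TPM of SOX17 in every hepatic library. TBX4 and FOXF1, factors of lung mesenchyme, reached at most 0.129 and 0.466 TPM in lung libraries, against at least 3.38 and 6.37 TPM in hepatic libraries. TBX5, WNT2 and FGF7 of the same list stayed at or under 0.0772 TPM in lung. The rest of the list had more RNA than these in lung libraries. NKX6-1 was at 1.86 to 57.5 TPM, BMP4 at 9.19 to 28.8 TPM and PDGFRA at 0.717 to 5.32 TPM. WNT2B was at 0.904 to 3.06 TPM and HHIP at 0.451 to 1.5 TPM. Most of them were present in hESC CTR too, with BMP4 at 8.52 and 7.0 TPM and PDGFRA at 1.84 and 1.8 TPM. WNT2B had 1.27 and 1.02 TPM there and HHIP 0.368 and 0.553 TPM, while NKX6-1 had 0.149 and 0.144 TPM. FGF10, a ligand from lung mesenchyme, had 1.21 to 4.37 TPM. FOXA2 was present, at 1.31 to 23.8 TPM, and the stem cell and foregut factor SOX2 stood at 408.6 to 712.1 TPM. NKX2-1, SFTPB and SFTPC, which define the lineage, were thus low or at 0 at this age, and these samples are called lung organoids here as the label names them.

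**Figure D1:**
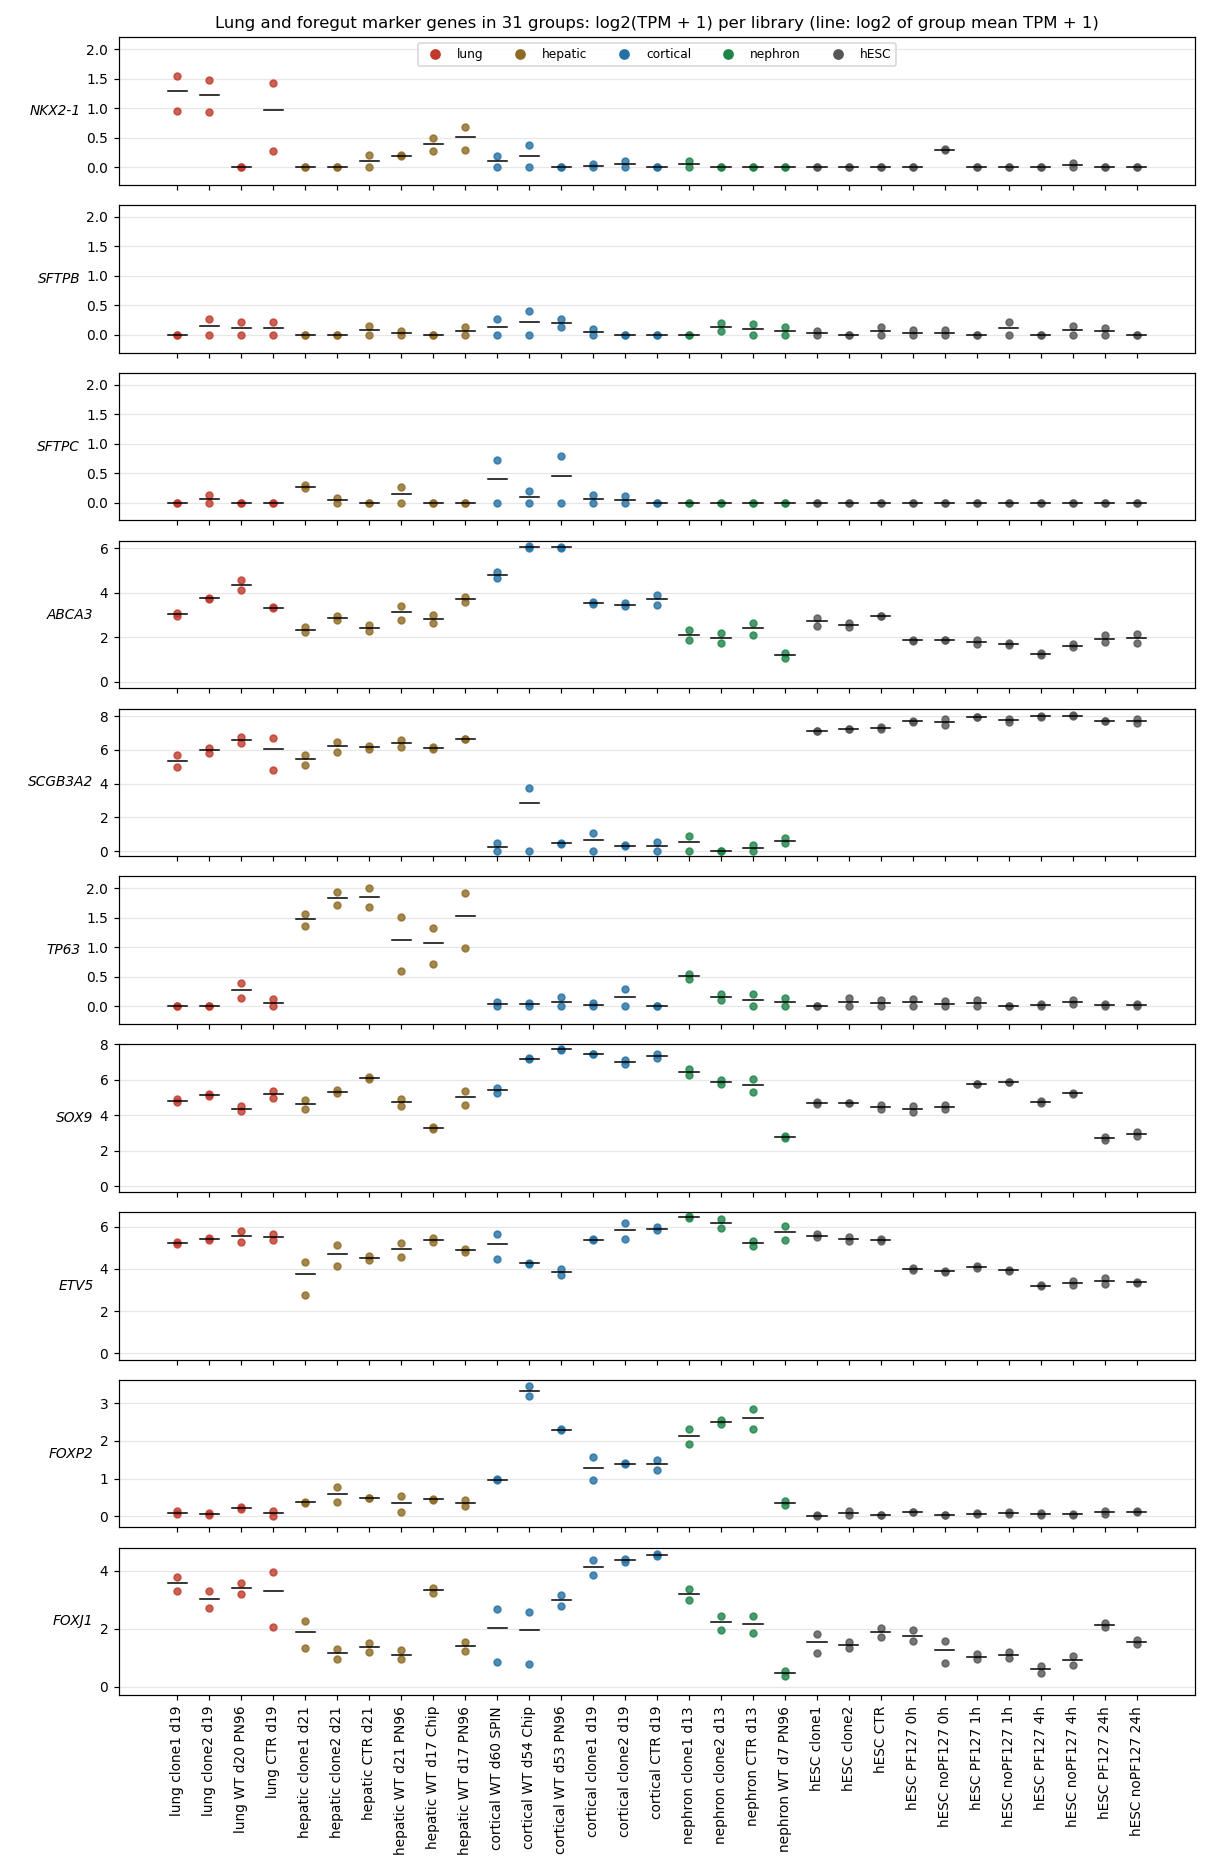
Level of each of the 10 genes in every library, as log2(TPM + 1) on the vertical axis, for 31 groups of 2 libraries coloured by organoid kind, with a line at the group mean. NKX2-1 stands above the other groups in lung clone 1, clone 2 and 1 CTR library, SFTPB and SFTPC lie at or near 0 throughout, and SCGB3A2 is highest in hESC and near 0 in nephron and most cortical libraries.

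ABCA3, a lipid transporter of alveolar type 2 cells that is also made in brain, was measured in every library. It had 6.84 and 7.64 TPM in lung clone 1, 12.7 and 12.4 TPM in clone 2, 16.5 and 22.8 TPM in WT, and 9.24 and 8.91 TPM in CTR. The cortical organoids exceeded them: WT libraries had 66.5 and 63.7 TPM at day 53 and 64.6 and 67.6 TPM under Chip at day 54. The PN96 day 53 and Chip day 54 means, 65.1 ± 1.99 and 66.1 ± 2.13 TPM, did not differ beyond their spread, and below them came cortical SPIN with 27.1 ± 4.13 TPM and lung WT with 19.7 ± 4.45 TPM. Lung CTR did not pass the test against hESC CTR, with 9.08 ± 0.232 TPM in lung and 6.76 ± 0.102 TPM in hESC (log2 change 0.38 ± 0.26, adjusted p = 0.29). It rose against hepatic CTR, which had 4.3 ± 0.685 TPM (0.93 ± 0.26, adjusted p = 0.021), and against nephron CTR, which had 4.29 ± 1.47 TPM (0.96 ± 0.26, adjusted p = 0.015). Against cortical CTR, at 12.1 ± 2.88 TPM, it did not pass the test (-0.36 ± 0.26, adjusted p = 0.29). The hepatic call was lost without hepatic replicate 1 (0.8, adjusted p = 0.12) or 2 (1.07, adjusted p = 0.051), and the nephron call without nephron replicate 1 (0.67, adjusted p = 0.1). In fits of only the 4 libraries compared both calls were lost, against hepatic CTR at adjusted p = 0.069 and against nephron CTR at adjusted p = 0.074.

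SCGB3A2 was the member with the most RNA in stem cells. It had 30.04 and 50.4 TPM in lung clone 1, 68.3 and 54.6 TPM in clone 2, 107.0 and 83.2 TPM in WT and 26.9 and 105.0 TPM in CTR. In hESC CTR it had 159.5 and 150.5 TPM, and over all 22 hESC libraries it ranged from 140.1 to 263.4 TPM with a median of 208.1 TPM. Every lung library lay below every hESC library. Hepatic libraries overlapped the lung ones, at 33.3 to 99.6 TPM with a median of 70.9 TPM. Nephron libraries stayed at or under 0.876 TPM, and cortical libraries at or under 1.11 TPM apart from 1 Chip library at 12.5 TPM, whose partner was listed at 0.

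In the fit of the 10 CTR libraries, SCGB3A2 fell in lung, to 65.9 ± 55.2 TPM, against 155 ± 6.4 TPM in hESC (log2 change -1.52 ± 0.51, adjusted p = 0.043). Without lung CTR replicate 1 the change was -0.56 (adjusted p = 0.12), and without replicate 2 it was -2.48 (adjusted p = 0.00031). It also lost its call without either hESC library (adjusted p of 0.15 and 0.14), so the call rests on all 4 libraries but lung CTR replicate 2. The call was further lost with a pseudocount of 0.1 TPM (adjusted p = 0.22), with no filter (adjusted p = 0.081), after rescaling by size factors (adjusted p = 0.054) and in a fit of only the 4 libraries (adjusted p = 0.13). It rose in lung CTR against cortical CTR, at 0.239 ± 0.338 TPM (5.48 ± 0.51, adjusted p = 9.3e-05), and against nephron CTR, at 0.13 ± 0.183 TPM (5.6 ± 0.51, adjusted p = 7.9e-05). Against hepatic CTR, at 70.7 ± 6.42 TPM, it did not pass the test (-0.4 ± 0.51, adjusted p = 0.58).

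Pluripotency genes moved with SCGB3A2 across the groups. Over 31 group means and 15509 genes ranked, the 3 genes most like SCGB3A2 were ZSCAN10 (r = 0.993), POU5F1 (r = 0.991) and ESRG (r = 0.987), all known from pluripotent stem cells. The groups share libraries of 5 cell types, so these correlations are descriptions of the same contrast between cell types. POU5F1 had 20.7 and 30.2 TPM in lung clone 1, 19.8 and 40.2 TPM in clone 2, 85.1 and 69.6 TPM in WT and 17.8 and 70.0 TPM in CTR, against 128.9 to 211.6 TPM in hESC. Lung CTR replicate 2, with more SCGB3A2 than replicate 1, also had more POU5F1. The cortical Chip library with 12.5 TPM of SCGB3A2 had 5.74 TPM of POU5F1, and its partner listed both at 0. All 5 genes of the pluripotency list were tested in lung CTR against hESC CTR, and 4 fell: POU5F1 to 43.9 ± 36.9 TPM against 139.8 ± 15.4 TPM in hESC, TDGF1 to 370.8 ± 339.3 against 989.2 ± 36.2 TPM, LIN28A to 644.8 ± 91 against 1487.7 ± 66.9 TPM, and DPPA4 to 333.9 ± 153 against 585.9 ± 29.7 TPM. The summed level of the 5 genes was 895.4 to 2456.6 TPM in lung libraries, against 3186.5 to 3542.1 TPM in hESC CTR and clones. Their part in the SCGB3A2 level was not tested.

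**Figure D2:**
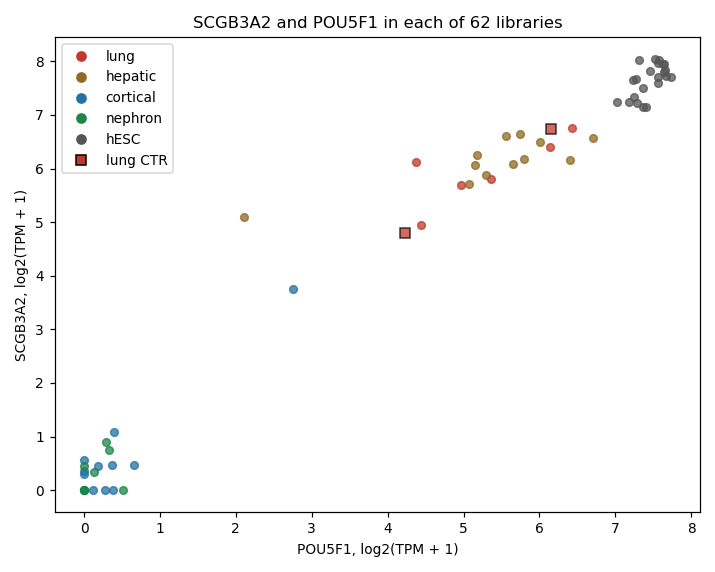
SCGB3A2 on the vertical axis against POU5F1 on the horizontal axis, both as log2(TPM + 1), with 1 point for each of 62 libraries coloured by cell type and the 2 lung CTR libraries as squares. Nephron and most cortical libraries lie at the origin, lung and hepatic libraries in the middle and hESC at the top, and lung CTR replicate 2 lies above and to the right of replicate 1.

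The SCGB3A2 gene lies at chr5:147870682-147882191 on the plus strand of GRCh38 (GENCODE 29). It has 4 transcripts there, of which 3 start 6693 to 8029 bases upstream of the start of the transcript named SCGB3A2-201. Values per gene cannot say which start was used. The gene overlaps C5orf46 on the other strand, which reached at most 5.15 TPM, in hESC.

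SOX9, the distal tip factor that also acts in neural progenitors, cartilage and bile ducts, was present everywhere. It had 29.5 and 25.5 TPM in lung clone 1, 33.5 and 36.1 TPM in clone 2, 17.7 and 21.8 TPM in WT and 30.8 and 39.7 TPM in CTR. In hESC CTR it had 22.6 and 19.7 TPM. SOX9 rose in lung CTR to 35.3 ± 6.32 TPM, against 21.1 ± 2.07 TPM in hESC CTR (0.7 ± 0.22, adjusted p = 0.035). The call was kept without lung CTR replicate 1 (0.88, adjusted p = 0.025) and lost without replicate 2 (0.53, adjusted p = 0.13), without hESC replicate 1 (0.8, adjusted p = 0.082) and without hESC replicate 2 (0.61, adjusted p = 0.17). It was also lost with no filter (adjusted p = 0.06), after rescaling (0.65, adjusted p = 0.062) and in a fit of only the 4 libraries (adjusted p = 0.054). Other organoids had more: SOX9 was lower in lung CTR than in hepatic CTR, at 67.7 ± 3.86 TPM (-0.93 ± 0.22, adjusted p = 0.011), and than in cortical CTR, at 159.7 ± 15.8 TPM (-2.16 ± 0.22, adjusted p = 0.00015). The hepatic call was lost without hepatic replicate 2 (-0.88, adjusted p = 0.066). Against nephron CTR, at 51.4 ± 17.5 TPM, the difference did not pass the test (-0.5 ± 0.22, adjusted p = 0.093). SOX9-AS1 on the opposite strand stayed at or under 5.35 TPM.

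ETV5, an ETS factor induced by FGF signalling, was nearly level between lung and stem cells. It had 35.0 and 37.2 TPM in lung clone 1, 43.2 and 39.7 TPM in clone 2, 53.9 and 37.5 TPM in WT and 40.9 and 48.7 TPM in CTR, against 38.3 and 41.8 TPM in hESC CTR. The change between the CTR groups was 0.15 ± 0.15 (adjusted p = 0.45). It rose against hepatic CTR, at 21.7 ± 2.04 TPM (1.01 ± 0.15, adjusted p = 0.001). The highest group means were 87.0 ± 4.1 TPM in nephron clone 1, 70.4 ± 13.7 TPM in nephron clone 2 and 58.8 ± 4.42 TPM in cortical CTR. The WT hESC of the PF-127 series had 8.15 to 16.3 TPM, all below the 38.3 to 48.6 TPM of hESC CTR and clones. Genotype label, labelled time and any batch differ together between these sets and cannot be told apart.

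Other genes listed with FGF signalling, which include the ligand FGF10 and the receptor FGFR2 beside feedback genes, did not move one way. Of 11 listed, 10 were tested in lung CTR against hESC CTR, 2 rose and 4 fell, with a median log2 change of -0.06 against 0.01 over all genes. FGF10 rose to 2.01 ± 0.618 TPM, against 0.0605 ± 0.0439 TPM in hESC. ETV4, the partner of ETV5 in the tip, fell to 69.5 ± 48.7 TPM in lung, against 163.4 ± 15.8 TPM in hESC (-1.41 ± 0.45, adjusted p = 0.034). SPRY4, a feedback inhibitor, fell to 52.4 ± 29.3 TPM, against 114.2 ± 4.29 TPM, and ETV1 fell to 14.4 ± 1.87 TPM, against 33 ± 1.38 TPM.

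FOXJ1, which switches on the motile cilium programme, had 12.6 and 8.91 TPM in lung clone 1, 5.49 and 8.85 TPM in clone 2, 8.24 and 10.8 TPM in WT, and 14.5 and 3.2 TPM in CTR. All 8 lung values lay above those of hESC CTR, 2.27 and 3.06 TPM. They did not all lie above the hESC of the PF-127 series, which reached 3.55 TPM, more than lung CTR replicate 2. The difference between the CTR groups did not pass the test (1.15 ± 0.52, adjusted p = 0.11). It hung on 1 library: without lung CTR replicate 2 the change was 2.09 (adjusted p = 0.0012), and without replicate 1 it was 0.2 (adjusted p = 0.64). FOXJ1 rose in lung CTR against hepatic CTR, at 1.58 ± 0.383 TPM (1.65 ± 0.52, adjusted p = 0.036), a call that was lost without lung CTR replicate 1 (0.71, adjusted p = 0.099) and without hepatic replicate 1 (adjusted p = 0.16) or 2 (adjusted p = 0.092). It was lower in lung CTR than in cortical CTR, at 22.4 ± 0.704 TPM (-1.54 ± 0.52, adjusted p = 0.039), lost without lung CTR replicate 2 (-0.6, adjusted p = 0.15) and without cortical replicate 1 (adjusted p = 0.12) or 2 (adjusted p = 0.13). RNF157-AS1, which overlaps FOXJ1 on the other strand, had 16.7 to 33.6 TPM in lung libraries and 28.2 to 58.0 TPM in cortical ones, against 3.27 to 11.6 TPM in hESC. If the libraries are unstranded, its reads cannot be told apart from those of FOXJ1. With no filter the hepatic and cortical calls of FOXJ1 were lost (adjusted p of 0.067 and 0.073), as they were in fits of only 4 libraries (0.12 and 0.089), and the cortical call was lost with a pseudocount of 0.1 TPM (adjusted p = 0.053).

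Other ciliated cell genes gave a mixed picture. Of 13 listed, 10 were tested in lung CTR against hESC CTR, 4 rose and 1 fell, with a median of 0.82 against 0.01 over all genes. RFX3 and RFX2, ciliary transcription factors, rose to 18.3 ± 9.61 and 5.18 ± 3.41 TPM in lung, against 5.34 ± 0.706 and 1.03 ± 0.414 TPM in hESC. PIFO, a gene of the primary cilium, rose to 8.88 ± 1.69 TPM, against 3.03 ± 0.301 TPM, and MYB, a factor of early multiciliated cells and of many dividing cells, fell to 0.966 ± 0.178 TPM, against 3.77 ± 0.775 TPM. MCIDAS, the upstream regulator of multiciliated cells, reached at most 0.606 TPM and SNTN, an airway cilium tip gene, at most 0.198 TPM in lung libraries. The 2 CTR libraries differed here as well, with a summed level of 62.4 TPM in replicate 1 and 34.0 TPM in replicate 2, against 19.5 to 23.7 TPM in hESC CTR and clones.

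TP63, the basal cell factor that is also an early surface ectoderm factor, was a hepatic gene in this series. All 12 hepatic libraries had 0.506 to 3.03 TPM, with a median of 1.9 TPM, and no other library exceeded 0.461 TPM. Lung libraries stayed at or under 0.317 TPM and 5 of 8 listed it at 0. It fell in lung CTR, at 0.0434 ± 0.0613 TPM, against hepatic CTR, at 2.62 ± 0.583 TPM (-1.79 ± 0.2, adjusted p = 0.00029). Among the 10 CTR libraries TP63 passed the filter only through the 2 of hepatic CTR. Its hepatic level thus decided that it was tested, so this call gives no independent support. In hepatic CTR the basal and squamous keratins were low, with KRT5 at most 0.357 TPM and KRT14 at most 0.423 TPM in any hepatic library. TFAP2A, a surface ectoderm factor, had 0.247 ± 0.0415 TPM in lung CTR and 42.9 ± 11.6 TPM in hepatic CTR.

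FOXP2, a factor of the distal lung epithelium and of neurons, was close to absent from lung organoids, at or under 0.187 TPM. It was highest in cortical Chip libraries, at 9.94 and 8.23 TPM, then in nephron CTR, at 6.23 and 3.96 TPM. Nephron clone 2 (4.67 ± 0.345 TPM) and cortical PN96 day 53 (3.92 ± 0.0326 TPM) followed, and nephron CTR (5.1 ± 1.6 TPM) did not differ from nephron clone 2 beyond its spread. Lung CTR was lower than nephron CTR (-2.51 ± 0.24, adjusted p = 1e-04) and than cortical CTR, at 1.6 ± 0.341 TPM (-1.3 ± 0.24, adjusted p = 0.0026).

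Counted over the members that could be tested, lung CTR did not stand out in the fit of the 10 CTR libraries. In each comparison of CTR groups 7 of the 10 genes passed the filter, and NKX2-1, SFTPB and SFTPC did not. TP63 passed it only through hepatic CTR, so its calls in the hepatic comparisons give no independent support. Against hESC CTR, 1 rose and 1 fell in lung, while 39.8% of all genes tested were called. The count depended on the setting. It was 0 with no filter, after rescaling or in the fit of 4 libraries, and 1 with a pseudocount of 0.1 TPM. In the fit of all 30 CTR and clone libraries it was 4. The same hESC libraries served for the other organoids: in cortical CTR 5 rose and 1 fell (52.5% of all genes called), in nephron CTR 2 rose and 1 fell (52.5%), and in hepatic CTR 2 rose and 1 fell (43.3%). Against hepatic CTR, 3 genes rose in lung and 2 fell (38.1% of all genes called). Against cortical CTR 1 rose and 3 fell (47%), and against nephron CTR 2 rose and 1 fell (49.8%). In the nephron comparisons the median gene moved as well, by 0.37 in nephron against hESC and by -0.29 in lung against nephron CTR, so changes there are relative to that shift.

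Among the rises called in the other CTR organoids against hESC CTR, SOX9 was found in each of them. In nephron and hepatic CTR the members called were no larger a share than that over all genes. Cortical CTR against hESC CTR gave SOX9 2.86 ± 0.22 (adjusted p = 2.6e-05), FOXJ1 2.68 ± 0.52 (adjusted p = 0.0027) and FOXP2 1.33 ± 0.24 (adjusted p = 0.0018) in log2 change. ETV5 rose by 0.54 ± 0.15 (adjusted p = 0.013), a call lost without hESC replicate 1 (0.48, adjusted p = 0.094) or cortical replicate 2 (0.47, adjusted p = 0.081) and in the fit of all 30 CTR and clone libraries (adjusted p = 0.2). ABCA3 rose by 0.73 ± 0.26 (adjusted p = 0.041), a call lost without hESC replicate 1 (adjusted p = 0.13), hESC replicate 2 (adjusted p = 0.15) or cortical replicate 2 (0.51, adjusted p = 0.23), with a pseudocount of 0.1 TPM (adjusted p = 0.051) and with no filter (adjusted p = 0.059). Nephron CTR gave FOXP2 2.55 ± 0.24 (adjusted p = 7.6e-05) and SOX9 1.21 ± 0.22 (adjusted p = 0.0023). Hepatic CTR gave TP63 1.79 ± 0.2 (adjusted p = 0.00023) and SOX9 1.64 ± 0.22 (adjusted p = 0.00059), with TP63 in the fit only through the hepatic CTR libraries. ETV5 fell there (-0.85 ± 0.15, adjusted p = 0.0019), which did not pass in the fit of 30 libraries (adjusted p = 0.052).

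**Figure D3:**
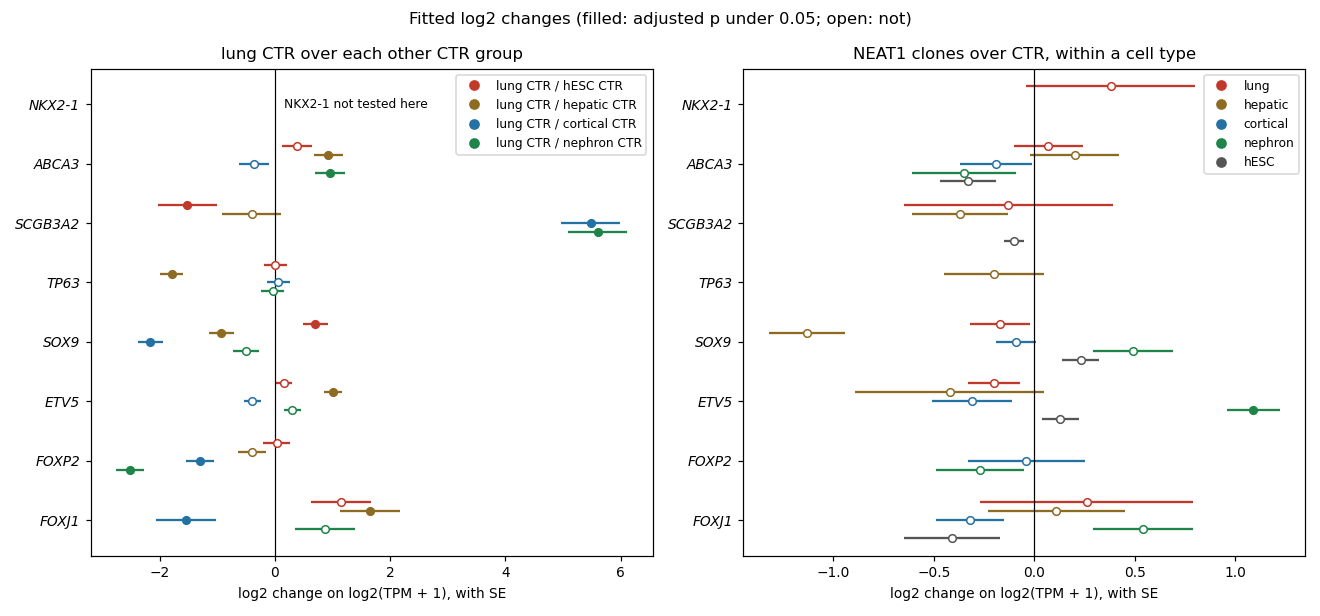
Fitted log2 change with its standard error on the horizontal axis for each tested gene: lung CTR over each other CTR group on the left, and NEAT1 clones over CTR within a cell type on the right, with filled points at an adjusted p under 0.05. Lung CTR shows SOX9 above hESC and SCGB3A2 below it, and among the knockout comparisons the only filled point is ETV5 in nephron organoids.

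Companion genes describe what else the lung organoids held. Of 15 foregut endoderm and epithelium genes, all tested in lung CTR against hESC CTR, 1 rose and 5 fell (median -0.4). SHH, the foregut ligand, rose to 1.48 ± 1.25 TPM, against 0.106 ± 0.0481 TPM in hESC, while the epithelial genes KRT19, KRT18 and EPCAM fell to 67.9 ± 5.54, 197.7 ± 58.1 and 213.9 ± 75.5 TPM, against 193.7 ± 7.9, 393.7 ± 38.6 and 422.1 ± 24.1 TPM. Of 13 further alveolar and tip genes 10 were tested, 1 rose and 4 fell (median -0.13). ID2, a tip factor that many progenitors share, rose to 67.8 ± 1.47 TPM, against 27.4 ± 2.43 TPM, and SLC34A2, the alveolar phosphate transporter, fell to 0.251 ± 0.146 TPM, against 8.53 ± 1.63 TPM in hESC. Of 10 lung mesenchyme genes 1 rose (median 0.06), which was NKX6-1, a homeobox factor also of pancreas and neural tube, and of 8 liver genes 0 rose and 0 fell (median 0.11), at a summed 1.81 to 10.5 TPM in lung against 3019.3 to 41575.8 TPM in hepatic libraries.

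Genes of other lineages that also use NKX2-1 or SOX9 were present. Of 9 neural genes 5 rose and 0 fell in lung CTR against hESC CTR (median 1.35): SOX1 rose to 9.02 ± 1.98 TPM, against 0.285 ± 0.0519 TPM, and MAP2 to 21 ± 8.39 TPM, against 2.01 ± 0.344 TPM. Of 12 ventral forebrain and hypothalamus genes 10 were tested, 3 rose and 1 fell (median 0.66), with NKX6-2 at 43.4 ± 45.5 TPM, against 5.51 ± 0.681 TPM in hESC. Of 8 thyroid genes 5 were tested, 2 rose and 1 fell (median 0.21): TG rose to 9.93 ± 7.46 TPM, against 0.514 ± 0.632 TPM, and PAX8 to 7.56 ± 7.49 TPM, against 0.0909 ± 0.0161 TPM. Of 8 cartilage genes 7 were tested and 3 rose (median 0.5), with COL2A1 at 102.5 ± 119.1 TPM, against 4.38 ± 0.239 TPM. Of 8 hindgut, stomach and pancreas genes 5 were tested, 2 rose and 1 fell (median 0.52), with CDX2, the hindgut factor, at 14.2 ± 15.5 TPM, against 0.0208 ± 0.0295 TPM.

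The companion calls against hESC rested on few libraries: of 49 genes called, 42 were refitted without each of the 4 libraries, and 28 of these lost their call in at least 1 refit. The other lists moved little or down: of 9 airway secretory and basal genes 2 were tested and 0 called (median 0.22), of 9 squamous and surface ectoderm genes 7 were tested and 3 fell (median -0.45), of 6 stroma genes 0 were called (median 0.24), of 4 endothelial genes 1 fell (median -0.44), and of 5 tested neural crest and glial genes 1 rose and 1 fell (median 0). Several of the sums came mostly from 1 CTR library. The ventral forebrain list summed to 82.9 TPM in lung CTR replicate 1 and 19.5 TPM in replicate 2, the cartilage list to 205.1 and 26.0 TPM and the hindgut list to 40.5 and 6.45 TPM. Few genes made up most of these sums, so they do not describe whole lists. NKX6-2 had 75.6 and 11.3 TPM in replicates 1 and 2, and COL2A1 186.7 and 18.3 TPM. In the hindgut list CDX2 had 25.1 and 3.23 TPM and NKX6-1 12.8 and 1.86 TPM. The pluripotency list ran the other way, at 968.6 TPM in replicate 1 and 1908.9 TPM in replicate 2. Replicate 1 is the CTR library with more NKX2-1 and FOXJ1, and replicate 2 the one with more SCGB3A2 and SOX9. Whether the lists and the lineage genes vary for the same reason was not tested.

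Against hepatic CTR the foregut, lung mesenchyme, stroma and liver lists were mostly lower, the neural list was higher and others were mixed. Of 15 foregut genes 1 rose and 10 fell in lung CTR (median -2), of 10 lung mesenchyme genes 1 rose and 6 fell (median -2.19) and all 6 stroma genes fell (median -6.49), while the median over all genes was -0.05. KRT19 had 67.9 ± 5.54 TPM in lung and 2729 ± 342.1 TPM in hepatic CTR, GATA6 0.148 ± 0.153 and 126.9 ± 5.49 TPM, and TBX4 0.0373 ± 0.0527 and 60 ± 6.48 TPM. Of the 10 alveolar and tip genes tested 4 fell and 0 rose, among them ID2, with 67.8 ± 1.47 TPM in lung and 571.8 ± 103.2 TPM in hepatic CTR, and HOPX, with 0.141 ± 0.0368 and 3.26 ± 0.271 TPM. All 8 liver genes fell. Of 10 ciliated cell genes tested 2 rose and 1 fell (median 0.09), and of 10 genes tested from the FGF list 1 rose and 4 fell (median -0.09). Of 9 neural genes 7 rose and 0 fell (median 1.62). NGFR, a receptor of airway basal cells and of neural crest, rose to 31.7 ± 2.64 TPM, against 7.43 ± 3.43 TPM.

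Lung WT at day 20 was set against lung CTR at day 19 in a fit of the 8 lung libraries, where 6 members were tested. The genotype label and the day differ together here and cannot be told apart. ABCA3 rose to 19.7 ± 4.45 TPM in WT, against 9.08 ± 0.232 TPM in CTR (1.02 ± 0.2, adjusted p = 0.025), and SOX9 fell to 19.8 ± 2.88 TPM, against 35.3 ± 6.32 TPM (-0.8 ± 0.18, adjusted p = 0.035). Of all genes tested, 12% were called. The ABCA3 call was lost without WT replicate 1 (1.24, adjusted p = 0.064) or 2 (0.8, adjusted p = 0.14), and the SOX9 call without WT replicate 1 (-0.66, adjusted p = 0.16) or 2 (-0.94, adjusted p = 0.11) or CTR replicate 2 (-0.62, adjusted p = 0.06). In a fit of only the 4 WT and CTR libraries neither passed (adjusted p = 0.14 for ABCA3 and 0.16 for SOX9) and 1 gene was called in all. NKX2-1, listed at 0 in both WT libraries, did not pass the test (adjusted p = 0.25).

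SCGB3A2 had 95.1 ± 16.9 TPM in lung WT and 65.9 ± 55.2 TPM in CTR (0.81 ± 0.56, adjusted p = 0.38). The value depended on the CTR library: it was 1.77 (adjusted p = 0.017) without CTR replicate 2 and -0.15 (adjusted p = 0.74) without replicate 1. FOXJ1 likewise was 1.32 (adjusted p = 0.039) without CTR replicate 1 and -0.57 (adjusted p = 0.28) without replicate 2. ETV5 was at 45.7 ± 11.6 TPM in WT and 44.8 ± 5.45 TPM in CTR (0.01 ± 0.19, adjusted p = 0.98). Among companion genes SCGB1A1 had 1.16 and 2.52 TPM in WT and was listed at 0 in both CTR libraries (adjusted p = 0.041). That call was lost in all 4 refits without 1 library. The lung clones had 0.881 and 0.509 TPM of SCGB1A1 in clone 1 and 0.491 and 1.15 TPM in clone 2. SHH rose to 13.6 ± 7.85 TPM, against 1.48 ± 1.25 TPM, and the FGF feedback genes SPRY1 and ETV1 rose to 27.2 ± 2.92 and 31.4 ± 4.27 TPM, against 11.2 ± 0.387 and 14.4 ± 1.87 TPM. TG, the thyroid product, fell to 0.112 ± 0.029 TPM, against 9.93 ± 7.46 TPM. Of the other companion genes, the stroma genes COL1A2 and COL3A1 rose, and the alveolar lipid enzyme gene LPCAT1, whose symbol has 2 rows, and the forebrain factor gene SIX6 fell. Each of these companion calls was lost in at least 1 of the 4 refits that left out 1 library. The median gene moved by 0.11 in this comparison.

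Loss of NEAT1 was compared with CTR next. NEAT1 itself averaged 0.454 TPM in the lung clones and 16.3 TPM in lung CTR, and the highest clone value in any of the 5 cell types was below the lowest CTR value of that cell type. In lung organoids 0 of 6 tested members changed, each at adjusted p = 0.99 (limma), and 0% of all genes were called, NEAT1 included (adjusted p = 0.25). At an unadjusted p under 0.05 there were 595 genes, among which no member. In the authors' deposited tables, made with DESeq2, 13 genes passed for clone 1 (0.0552% of genes with an adjusted p) and 19 for clone 2 (0.0894%), with NEAT1 among them and none of the 10 genes. The changes of the members were small or wide: NKX2-1 0.38 ± 0.42, ABCA3 0.07 ± 0.17, SOX9 -0.17 ± 0.15, ETV5 -0.2 ± 0.13, SCGB3A2 -0.13 ± 0.52 and FOXJ1 0.26 ± 0.53. ABCA3 had 12.5 ± 0.178 TPM in clone 2 and 7.24 ± 0.568 TPM in clone 1 (0.72 ± 0.19, adjusted p = 0.34). No gene was called in that comparison, with 2156 genes at an unadjusted p under 0.05. The lung clone 1 and clone 2 comparisons with CTR likewise called no gene, with 596 and 1392 genes at an unadjusted p under 0.05.

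In the other cell types, ETV5 in nephron organoids was the called member. It had 89.9 and 84.1 TPM in nephron clone 1 and 60.7 and 80.0 TPM in clone 2, against 39.1 and 33.4 TPM in CTR. ETV5 rose by 1.09 ± 0.13 (adjusted p = 0.0091), where 1 of 5 tested members and 7.23% of all genes were called. In the authors' deposited tables it changed by 1.29 in clone 1 (adjusted p = 3.1e-14) and 1.01 in clone 2 (adjusted p = 3.9e-08). Clone 1 also had SOX9 at 0.79 (adjusted p = 0.003) and FOXJ1 at 1.24 (adjusted p = 0.023) in the authors' deposited table, in which 12.4% of genes passed. In clone 2 SOX9 was at 0.23 (adjusted p = 0.65) and FOXJ1 at 0.09 (adjusted p = 0.96) in the authors' deposited table, where 3.77% passed.

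SOX9 in hepatic organoids had 28.1 and 19.2 TPM in clone 1 and 37.6 and 41.4 TPM in clone 2, against 65.0 and 70.5 TPM in CTR. The clone libraries averaged 31.6 ± 9.94 TPM and the CTR libraries 67.7 ± 3.86 TPM. The change of -1.13 ± 0.19 did not pass the test in the fit of the 6 hepatic libraries (adjusted p = 0.33), where 0 of 6 members and 0.00474% of all genes, 1 gene, were called and 2307 genes, SOX9 among them, had an unadjusted p under 0.05 (limma). In the fit of all 30 CTR and clone libraries it passed (adjusted p = 0.00092). In the authors' deposited tables it changed by -1.54 in clone 1 (adjusted p = 6.2e-07, where 2.6% of genes passed) and -0.85 in clone 2 (adjusted p = 0.027, where 2.66% passed).

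In cortical organoids 0 of 5 members changed (limma, 0.0722% of all genes called and 1504 genes at an unadjusted p under 0.05), and the authors' deposited tables, which called 0.698% and 2.25% of genes, gave none of the 10 either. In hESC 0 of 5 changed (0.6% of all genes called and 4187 genes at an unadjusted p under 0.05). The authors' deposited table for hESC clone 1 called 2.19% of genes and no member, and that for clone 2 called 7.65%, among them ABCA3 at -0.58 (adjusted p = 0.027). The knockout change in lung minus its mean over the other 4 cell types was tested for 8 members and called for 0 (limma, 0.0647% of all genes called and 1986 at an unadjusted p under 0.05), between -0.32 ± 0.34 for ETV5 and 0.38 ± 0.26 for NKX2-1.

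The WT organoids were compared by day and culture condition, in part with CTR organoids, for where the lineage genes appear. In cortical WT at day 53 against CTR at day 19, 2 of 7 tested members rose and 1 fell, and 39.4% of all genes were called. ABCA3 rose to 65.1 ± 1.99 TPM, against 12.1 ± 2.88 TPM (2.36 ± 0.25, adjusted p = 2.9e-06), and FOXP2 to 3.92 ± 0.0326 TPM, against 1.6 ± 0.341 TPM (0.93 ± 0.22, adjusted p = 0.0032, and 0.073 with a pseudocount of 0.1 TPM). ETV5 fell to 13.4 ± 2.02 TPM, against 58.8 ± 4.42 TPM (-2.06 ± 0.31, adjusted p = 7.2e-05). The label CTR or WT and the day differ together, and the median gene moved by 0.28.

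Under SPIN at day 60 against PN96 at day 53, 1 of 7 members rose and 3 fell (40.6% of all genes called). SOX9 fell to 41.3 ± 5.98 TPM, against 208.2 ± 8.05 TPM (-2.31 ± 0.24, adjusted p = 8.4e-07), ABCA3 to 27.1 ± 4.13 TPM, against 65.1 ± 1.99 TPM, and FOXP2 to 0.949 ± 0.026 TPM, against 3.92 ± 0.0326 TPM. ETV5 rose to 35.4 ± 19.8 TPM, against 13.4 ± 2.02 TPM (1.23 ± 0.31, adjusted p = 0.0043), with 49.4 TPM in SPIN replicate 1 and 21.4 TPM in replicate 2, and without replicate 1 the call was lost (0.65, adjusted p = 0.094). Under Chip at day 54 against PN96 at day 53, FOXP2 rose to 9.09 ± 1.21 TPM, against 3.92 ± 0.0326 TPM (1.03 ± 0.22, adjusted p = 0.027), the 1 of 7 members called beside 1.48% of all genes. It lost its call without any 1 of the 4 libraries (adjusted p of 0.064 to 0.15), with a pseudocount of 0.1 TPM (adjusted p = 0.35) and after rescaling (adjusted p = 0.051). In both comparisons condition and day differ together.

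In nephron CTR at day 13 against WT at day 7, 4 of 7 members rose and 0 fell (35.9% of all genes called, and the median gene moved by 0.28). Here too the label CTR or WT and the day differ together and cannot be told apart. SOX9 had 51.4 ± 17.5 TPM at day 13 and 6 ± 0.402 TPM at day 7 (2.86 ± 0.24, adjusted p = 2.5e-07). FOXP2 had 5.1 ± 1.6 and 0.268 ± 0.0681 TPM (2.24 ± 0.22, adjusted p = 1.6e-06), and ABCA3 4.29 ± 1.47 and 1.27 ± 0.207 TPM (1.19 ± 0.25, adjusted p = 0.0014). FOXJ1 had 3.5 ± 1.29 and 0.374 ± 0.125 TPM (1.68 ± 0.61, adjusted p = 0.041), and its call was lost without any 1 of the 4 libraries (adjusted p of 0.069 to 0.21), with no filter (adjusted p = 0.064) and after rescaling (adjusted p = 0.051).

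In hepatic WT at day 17, 0 of 7 members rose and 2 fell under Chip against PN96 (6.89% of all genes called, and the median gene moved by -0.19). SOX9 fell to 8.76 ± 0.606 TPM, against 31.6 ± 11.8 TPM (-1.69 ± 0.24, adjusted p = 7e-04). ABCA3 fell to 6.13 ± 1.39 TPM, against 12.1 ± 1.51 TPM (-0.88 ± 0.25, adjusted p = 0.044), lost without any 1 of the 4 libraries (adjusted p of 0.094 to 0.3) after rescaling (-0.66, adjusted p = 0.14), with a pseudocount of 0.1 TPM (adjusted p = 0.055) and with no filter (adjusted p = 0.056). FOXJ1 had 9.57 and 8.4 TPM under Chip and 1.93 and 1.34 TPM under PN96 (1.93 ± 0.61), which did not pass the test (adjusted p = 0.07) and did so after rescaling (2.18, adjusted p = 0.038). Between hepatic WT at day 21 and at day 17, 0 of 7 members changed (limma, 1.27% of all genes called and 3528 at an unadjusted p under 0.05).

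In WT hESC, PF-127 changed 0 of 5 tested members at each of the 4 times. At 0, 1, 4 and 24 h 0%, 0%, 0.213% and 1.23% of all genes were called (limma), and 1029, 1370, 2829 and 2430 genes had an unadjusted p under 0.05. The nearest was SOX9 at 4 h, with 26.6 and 24.8 TPM with PF-127 and 37.7 and 36.1 TPM without it (-0.5 ± 0.11, adjusted p = 0.11). At 1 h SOX9 averaged 54.1 ± 0.109 TPM in the arm with PF-127 and 57.3 ± 0.854 TPM in the arm lacking it (-0.08 ± 0.11, adjusted p = 0.94).

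Time moved SOX9 in both arms, in a test added after its values had been seen. Over the 4 libraries of each time it had 20.4 ± 2.41 TPM at 0 h, 55.7 ± 1.92 TPM at 1 h, 31.3 ± 6.53 TPM at 4 h and 6.18 ± 0.977 TPM at 24 h. The step to 1 h was 1.41 ± 0.08 (adjusted p = 2.1e-06, where 12.5% of all genes were called), that to 4 h -0.83 ± 0.08 (adjusted p = 1.8e-05, 35.8%) and that to 24 h -2.16 ± 0.08 (adjusted p = 8.3e-09, 48.1%, with the median gene at 0.11). ETV5 fell at 4 h against 1 h, to 8.65 ± 0.724 TPM against 15.1 ± 1.08 TPM (-0.74 ± 0.07, adjusted p = 1.2e-05). ABCA3 fell at 4 h (-0.31 ± 0.11, adjusted p = 0.049) and rose at 24 h (0.5 ± 0.11, adjusted p = 0.0032). SCGB3A2 fell at 24 h against 4 h, to 207.6 ± 12.8 TPM against 257.6 ± 5.49 TPM (-0.31 ± 0.07, adjusted p = 0.0027), and FOXJ1 rose to 2.63 ± 0.849 TPM, against 0.697 ± 0.296 TPM (1.08 ± 0.17, adjusted p = 0.00034).

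**Figure D4:**
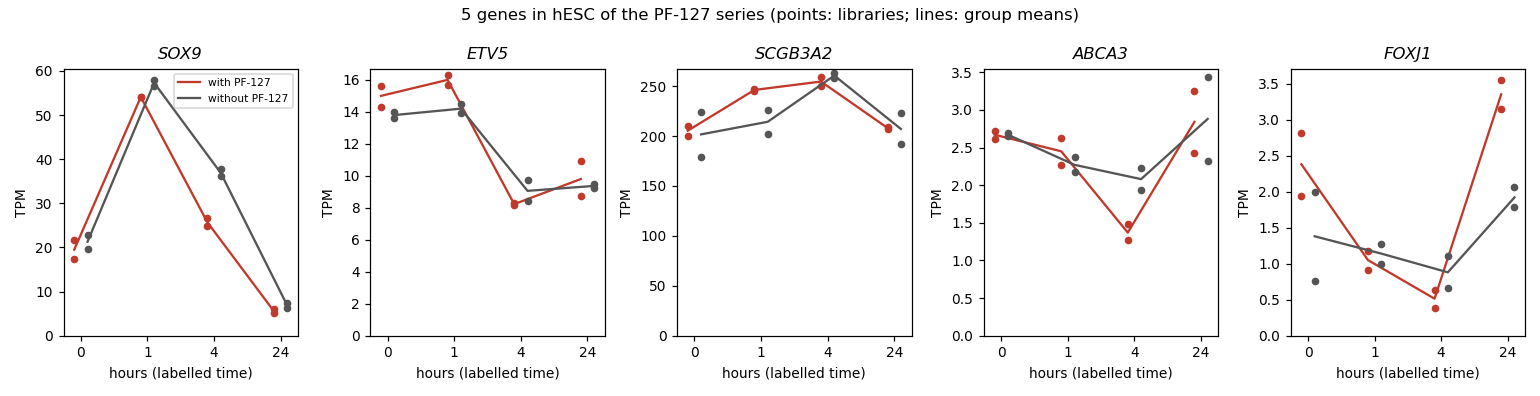
TPM of 5 genes in hESC of the PF-127 series at 0, 1, 4 and 24 h, with 1 point for each library, lines through the group means, and the arm with PF-127 in red left of the arm without it in grey. SOX9 peaks at 1 h in both arms, with means of 54.1 TPM (PF-127) and 57.3 TPM (no PF-127), and is lowest at 24 h.

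The genes most like each of the other members over the 31 group means were named in the same way as for SCGB3A2. ABCA3 was most like ELFN2 (r = 0.918), KIAA0513 (r = 0.914) and ACOT8 (r = 0.913). SOX9 was most like TMEM255A (r = 0.85) and ADGRB2 (r = 0.845), and then the readthrough gene FXYD6-FXYD2 (r = 0.84), whose reads are shared with its parent genes. ETV5 was most like NIPSNAP1 (r = 0.838), IRAG1 (r = 0.829) and RAB28 (r = 0.828). FOXP2 was most like KIAA1549 (r = 0.933), DNAJC5 (r = 0.929) and PRDM8 (r = 0.929). For FOXJ1 the highest were CLEC18B (r = 0.863) and CLEC18C (r = 0.853), near-identical paralogs whose reads can be split, and ZFP3-DT (r = 0.836). The 4 members whose mean stayed under 5 TPM in every group were not ranked.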

How the data were processed

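PolyA RNA-seq libraries were made after TRIzol extraction, per the labels' protocols. The submitters' processing notes name FastQC 0.11.9, Trim Galore 0.6.7, cutadapt 4.1, STAR 2.7.10a, featureCounts 2.0.1, R 4.2.0 and DESeq2 1.36.0, and the build GRCh38; the annotation and strand setting are not given in the sources used here. The authors deposited TPM for 37415 genes in 62 libraries and, in 10 comparison tables, DESeq2 log2 changes, p-values, the Wald test score and a base mean signal (counts over size factors). TPM summed to 1000000 in each library, 16989 to 20396 genes reached 1 TPM, and 707 rows repeat a symbol.

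Group means of log2(TPM + 1) were compared with limma 3.58.1 (R 4.3.3, empirical Bayes with a trend, two-sided, Benjamini-Hochberg over all genes tested). Genes needed 1 TPM in 2 libraries of a fit. Fits held the 10 CTR libraries, 6 CTR and clone libraries of a cell type, 30 CTR and clone libraries (knockout difference), 8 lung libraries, 24 libraries of WT and CTR organoids, or 16 PF-127 libraries. On simulated data for lung CTR against hESC CTR, the fit of 21117 genes recovered 48% of 2-fold and 89% of 4-fold changes. These shares were 31% and 75% for the lung knockout, 37% and 74% for lung WT against CTR, and 88% and 100% for PF-127 at 4 h. The changes were put only into genes above about 5 TPM, in data with all other group differences removed. The shares therefore do not cover genes with few TPM, such as NKX2-1. The authors' DESeq2 tables cover 2 clones in 5 cell types. Tables were handled with pandas 2.3.3 and numpy 2.4.6 in python 3.11.15, and figures drawn with matplotlib 3.10.9.

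The 10 genes and the 17 companion lists (152 genes) were chosen with earlier results of these data known. All members are named; from each list, the called genes with the largest changes, up to 4, were eligible to be named. Alternatives were a pseudocount of 0.1 TPM, a filter of 5 TPM or none, rescaling by size factors, other sets of libraries in a fit, a replicate block, and leaving out each library.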

Additional observations from a re-analysis of the deposited data

Results flagged for a closer look

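SOX9 differed in its knockout change between cell types. The change in hepatic organoids (31.6 ± 9.94 TPM in clones and 67.7 ± 3.86 TPM in CTR) minus that in hESC (24.9 ± 1.09 TPM in clones and 21.1 ± 2.07 TPM in CTR) was -1.36 ± 0.24 on the log2 scale (limma on 30 libraries, adjusted p = 0.0084, with 0.671% of all genes called). All 4 hepatic clone libraries lay below both hepatic CTR libraries, and all 4 hESC clone libraries lay above both hESC CTR libraries. The gene and the cell types were picked by that separation, so it adds no evidence. The adjusted p does not allow for this choice. In hESC the gap was small, from 22.6 TPM in CTR to 23.6 TPM in the clones at the nearest. In the authors' deposited DESeq2 tables SOX9 was at 0.16 (adjusted p = 0.82) in hESC clone 1 and 0.13 (adjusted p = 0.61) in clone 2. The test was added after these values had been seen, and each clone is 1 cell clone.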

How the results depend on the processing

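Counts of called members moved under these alternatives. Lung CTR against hESC CTR gave 2 in the report, 1 with a pseudocount of 0.1 TPM, 0 with no filter, 0 after rescaling, 0 in the fit of only the 4 libraries and 4 in the fit of 30. Nephron CTR against hESC gave 5 after rescaling, hepatic CTR against hESC 5 and lung CTR against hepatic CTR 3 in fits of 4 libraries, lung CTR against nephron CTR 5 and the hepatic knockout 1 in the fit of 30. Cortical Chip against PN96 gave 0 with the pseudocount of 0.1 TPM and 0 after rescaling, and hepatic Chip against PN96 gave 1 with that pseudocount and 1 with no filter. Lung WT against CTR gave 2 in the report, 0 in the fit of 4 libraries and 1 with a replicate block (SOX9 at adjusted p = 0.052, 1624 genes called against 2488). Same-numbered libraries there deviated oppositely (r = -0.296), and a crossed replicate block, added after seeing the data, gave 1 member and 2047 genes called, against 0 genes with the numbers as labelled in the same 4 libraries. Elsewhere r between the compared groups was -0.091 to 0.035, the numbers do not pair the samples, and with a replicate block lung CTR against hESC CTR gave 2.

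Leaving out 1 library, the called members ranged from 0 to 2 for lung CTR against hESC CTR, 4 to 6 for cortical, 3 to 4 for nephron and 2 to 3 for hepatic CTR against hESC, 1 to 6 for lung against hepatic, 3 to 4 against cortical and 2 to 4 against nephron CTR, 1 to 2 for the nephron knockout, 0 to 1 for the knockout difference, 0 to 3 for lung WT, 3 to 5 for SPIN, 0 to 1 for cortical Chip, 3 to 3 for cortical day 53 and for nephron day 13, 1 to 1 for hepatic Chip, and 0 to 0 for the others. Values changed sign in ETV5 of lung WT (-0.11 after rescaling, -0.25 to 0.27 without 1 library), SCGB3A2 of lung WT (-0.15 to 1.77), FOXJ1 of lung WT (-0.57 to 1.32), and in the lung knockout NKX2-1 (-0.21 to 0.96), SCGB3A2 (-1.09 to 0.84), SOX9 (-0.35 to 0) and FOXJ1 (-0.68 to 1.2); the cause was not tested.

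Counts of all genes called varied over settings. They ran over 0 to 1228 for the hepatic knockout (1 in the report), 0 to 2661 for lung WT (2488), 4 to 89 for the cortical (14), 68 to 290 for the hESC (116), 735 to 1636 for the nephron (1494) and 0 to 20 for the lung knockout (0), and 9 to 39 for the knockout difference (16). Ranges past 1.5 times the reported count were also 174 to 398 for hepatic day 21 (320), 1077 to 1705 for hepatic Chip (1741), 25 to 63 for PF-127 at 4 h (41), 4912 to 10314 for lung against hepatic (8705), 7067 to 12181 against cortical (10743) and 7199 to 12819 against nephron CTR (11373), and up to 16, 126 and 587 genes, against 0, for lung clone 1, clone 2 and their difference. The share of calls that were higher moved by rescaling to 50.3% for nephron against hESC (69.9% as deposited), 48.9% for lung against nephron (31.1%), 40.7% for lung WT (54.3%), 52% for cortical day 53 (77.7%), 37.8% for cortical Chip (57.5%), 54.8% for nephron day 13 (76.9%), 42.2% for hepatic Chip (12.4%) and 19.3% for the hESC knockout (33.6%).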
